A study of Homo sapiens with 6 samples.

Results

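The HOX cluster genes were examined in MG63 cells, an established human osteosarcoma line of mesenchymal, bone-related character. They were all genes of the table whose symbol is HOX, a cluster letter from A to D and a position number. This gave 39 of 61806 genes: 11 in HOXA on chromosome 7, 10 in HOXB on chromosome 17, 9 in HOXC on chromosome 12 and 9 in HOXD on chromosome 2. HOX genes encode transcription factors that bind DNA through a homeodomain, usually together with PBX and MEIS cofactors. Within each cluster the genes stand in a row, and their order matches the order in which they are used along the body axis, low numbers towards the head and high numbers towards the tail and the limb ends. Connective tissue cells keep a HOX pattern that reflects the body site they came from, and HOX factors also take part in patterning the skeleton.

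All 6 libraries were MG63 cells. The 3 libraries called shNC came from cells with a control short hairpin, and the 3 called shFTO from cells with a stable short hairpin against FTO, the gene of an RNA demethylase that acts on N6-methyladenosine. The labels give them as separate biological replicates, sequenced from poly(A) RNA, and do not say whether a line was 1 clone or which hairpin sequence it carried. The design asks which transcripts depend on FTO. Values are FPKM (fragments scaled to exon length and library total) and, where stated, the whole reads recovered from them.

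Depth was low. The libraries held from 93629 to 106245 recovered reads, 592760 in all, and FTO itself was listed at 0 in all 6, so its level gave no check of the labels; 3 reads over a group would be 0.486 FPKM in shNC and 0.462 in shFTO. Of 10 mesenchymal and bone lineage markers 7 had reads, and PRRX1 alone held 705 of their 1159 reads. COL1A1 had 139, SPARC 121, VIM 85, TWIST1 69, COL1A2 26 and RUNX2 14, while ALPL, BGLAP and SPP1 were at 0. The summed markers of that list ran from 185 to 209 of 100000 reads in shNC and from 193 to 200.1 in shFTO. Markers of blood and muscle had no reads. KRT8 and KRT18 were the 2 of 7 epithelial markers with reads. The 6 reads of KRT18 were all in shFTO, KRT8 had 2, and EPCAM and CDH1 were at 0. Endothelial and neural markers had 1 read each, with CDH5 and SOX2 at 0.

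HOX reads gathered at a few genes, chiefly HOXC4, HOXC6 and HOXB6, and came mainly from HOXC. The 39 genes held 580 reads, 0.0978% of all reads. Reads were found for 17 members (43.6%), against 32.9% of 19838 protein-coding genes, and 6 members had reads in all 6 libraries. HOXC held 375 of the 580 reads (64.7%), HOXB 117 (20.2%), HOXD 76 (13.1%) and HOXA 12 (2.07%). By position number, genes 4 to 6 held 421 reads (72.6%) and genes 9 and 10 held 138 (23.8%). Genes 7 and 8 held 16 reads, genes 11 to 13 held 4 and genes 1 to 3 held 1. The reads of genes 4 to 6 were mainly of HOXC4 (116), HOXC6 (157) and HOXB6 (106), so this is not a pattern of every cluster. HOXD had only HOXD4 there, at 0, and its most-read gene was HOXD10 (61). In HOXA, HOXA5 had 3 reads, HOXA9 had 3 and HOXA10 had 4.

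**Figure D1:**
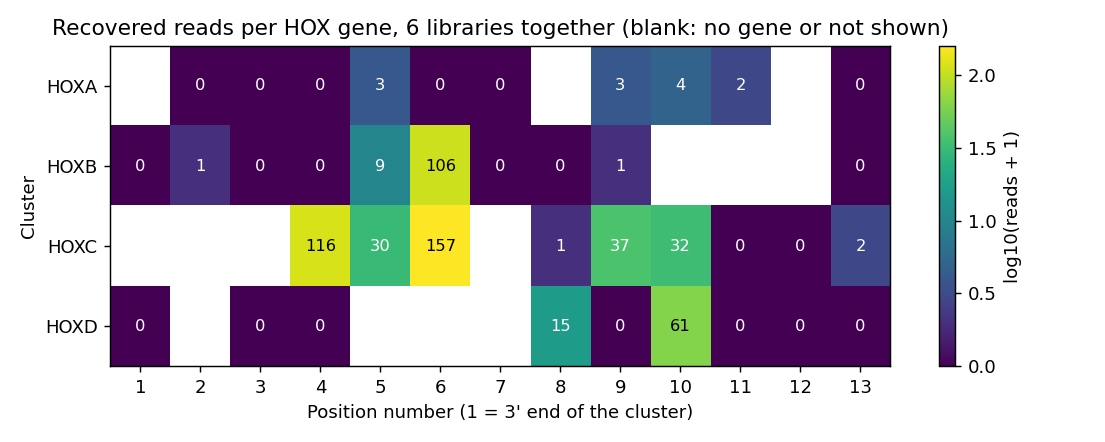
Recovered reads of each HOX gene over the 6 libraries, by cluster (rows) and position number (columns), with colour on a log10 scale of reads + 1 and blanks where no gene exists or no value is shown. Reads gather in HOXC4, HOXC6 and HOXB6 (116, 157 and 106) and in HOXD10 (61), while most of HOXA is at 0.

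HOX genes share the homeobox, and the members read here resemble each other there to different degrees. The set below shows the stretch of 42 bases (14 codons) that codes for the third, DNA-contacting helix of the homeodomain, in 7 of the 8 members with the most reads. It is read from GENCODE release 29 transcripts and shown to make clear how alike the messages are between which reads must be told apart. Capitals mark the 18 positions at which the 7 sequences differ, and lower case the positions that all 7 share.
HOXC6: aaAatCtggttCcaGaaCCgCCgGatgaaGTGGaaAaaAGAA
HOXC4: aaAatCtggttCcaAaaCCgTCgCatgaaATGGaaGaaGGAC
HOXB6: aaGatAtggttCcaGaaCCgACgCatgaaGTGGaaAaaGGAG
HOXD10: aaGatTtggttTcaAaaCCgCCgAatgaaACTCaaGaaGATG
HOXC9: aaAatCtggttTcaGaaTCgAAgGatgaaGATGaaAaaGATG
HOXC10: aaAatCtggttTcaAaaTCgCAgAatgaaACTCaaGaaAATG
HOXD8: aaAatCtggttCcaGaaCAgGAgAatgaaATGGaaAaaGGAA

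HOXD10 and HOXC10 differed at 5 of these bases and HOXC6 and HOXB6 at 6, while HOXC6 and HOXD10 differed at 14 and HOXB6 and HOXC10 at 16. The coded stretch was the same protein sequence in HOXC6, HOXB6 and HOXD8, and in 8 of the 39 members in all. Outside genes that share an exon, the longest identical run that any of the 8 most-read members had with another HOX message was 51 bases, between HOXB6 and HOXB7. For the other 7 it was 23 to 31 bases. The run common to HOXB6 and HOXB7, shown because these 2 neighbours had 106 and 0 reads, lies in the homeobox and was found in no other HOX message.
HOXB6 and HOXB7: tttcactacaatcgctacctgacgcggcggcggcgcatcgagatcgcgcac
A read that falls wholly inside such a run cannot be given to either gene, and the read length is not given in the sources used here.

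HOXC6, a mid-cluster gene active in the thoracic and forelimb region of embryos, had the highest mean level (chromosome 12, 53990624 to 54030823, plus strand, GRCh38). It stood at 73.6, 63 and 61.8 FPKM in shNC replicates 1, 2 and 3, and at 65.3, 110.7 and 86.6 FPKM in shFTO replicates 1, 2 and 3. These values came from 24, 22 and 20 reads and from 24, 36 and 31 reads. The shFTO libraries 2 and 3 were above every shNC library, while shFTO replicate 1 lay within their range. The means were 66.1 ± 6.48 and 87.5 ± 22.7 FPKM (SD, n = 3 per group, as throughout).

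HOXC4, the gene at the low-numbered end of its cluster (54016931 to 54056030), is a neighbour of HOXC6 on the same strand. Its levels were 38.3, 60.8 and 108.1 FPKM in shNC and 54.4, 92.2 and 73.3 in shFTO. The groups overlapped fully, since shNC replicates 1 and 3 were the lowest and the highest of all 6. Their means were 69.1 ± 35.6 and 73.3 ± 18.9 FPKM. HOXC5 (54033050 to 54035361), which lies inside the span of HOXC4, had 65.8, 24.6 and 19.9 FPKM in shNC and 11.7, 33 and 36 in shFTO, from 30 reads in all. Here shNC replicate 1 was the highest library, the reverse of HOXC4.

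HOXC4, HOXC5 and HOXC6 are known for joint messages made by alternative splicing. In the gene models of GENCODE release 29, 17.8% of the exonic bases of HOXC4 and 15.7% of HOXC6 also belong to another gene on the same strand, among them each other and an entry named HOXC5. Of the HOXC5 bases 59.9% do, shared with AC012531.2 and a second entry named HOXC5. How the counting treated reads there is not given in the sources used here, so the reads given to each of these 3 genes are uncertain. RefSeq gives HOXC4 and HOXC5 a start at the same base. The 250 bases before it (GRCh38.p14, chr12:54016638-54016887, plus strand) are shown since both genes share them, with CCAAT in either direction in capitals.
HOXC4 and HOXC5: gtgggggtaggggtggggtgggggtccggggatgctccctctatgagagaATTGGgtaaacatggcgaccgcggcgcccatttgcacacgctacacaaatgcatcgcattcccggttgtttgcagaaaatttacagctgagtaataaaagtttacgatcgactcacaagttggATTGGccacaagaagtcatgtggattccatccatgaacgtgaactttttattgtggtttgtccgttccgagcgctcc

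HOXC9 and HOXC10, posterior genes of the same cluster used in the lower trunk and hindlimb region, had lower mean levels than HOXC6 and HOXC4. HOXC9 (53994895 to 54003337) had 44.5, 23.8 and 70.5 FPKM in shNC and 56.5, 19.1 and 11.6 in shFTO. The groups overlapped, with means of 46.3 ± 23.4 and 29.1 ± 24. HOXC10 (53985065 to 53990279) had 22.4, 0 and 36 FPKM in shNC and 23.8, 26.9 and 28.5 in shFTO. Its shFTO values were close together, and the 0 in shNC replicate 2 set the lower shNC mean (19.5 ± 18.2 against 26.4 ± 2.4). HOXC8, the neighbour of HOXC9 on the chromosome, had 1 read in all, in shFTO replicate 1. HOXC13 had 2 reads, both in shNC replicate 1, and HOXC11 and HOXC12 were at 0.

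HOXB6 was nearly the whole of HOXB, with 106 of its 117 reads (chromosome 17, 48595751 to 48604992, minus strand). It is a mid-trunk gene also known from blood and lung development. It stood at 65.1, 91.3 and 77.9 FPKM in shNC and 68.7, 53.1 and 55.7 in shFTO. Of the shFTO libraries, 2 lay below every shNC library, while shFTO replicate 1 lay above the lowest. The means were 78.1 ± 13.1 and 59.1 ± 8.37 FPKM. HOXB5, the next gene, had 11.4, 0 and 11.5 FPKM in shNC and 5.06, 5.72 and 15.6 in shFTO, which is 4 and 5 reads. HOXB2 and HOXB9 had 1 read each, both in shNC. In GENCODE release 29, 16.6% of the HOXB6 exonic bases also belong to HOXB3 and 16.3% lie opposite exons of HOXB-AS3, and both of those genes were at 0.

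HOXD10, a gene of limb and lower spinal cord patterning, was the member whose groups did not overlap (chromosome 2, 176108790 to 176119937, plus strand). That is 1 of 17 members tested, against 6.59% of all genes tested. HOXD10 stood at 46.9, 47.8 and 55.8 FPKM in shNC and at 45.4, 21.4 and 31.1 in shFTO. The reads were 11, 12 and 13 in shNC and 12, 5 and 8 in shFTO, so shFTO replicate 1 had as many reads as shNC replicate 2 and lay below the shNC range only after scaling to its larger library. The means were 50.1 ± 4.93 and 32.6 ± 12.1 FPKM. HOXD8 had 8.06, 7.53 and 20.3 FPKM in shNC and 14.3, 0 and 7.35 in shFTO, from 15 reads. HOXD9, which lies between them, was at 0, as were the other 6 HOXD genes.

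The window before the RefSeq start of HOXD10 (GRCh38.p14, chr2:176116528-176116777, plus strand) is shown for the member whose groups separated, with CCAAT in either direction in capitals.
HOXD10: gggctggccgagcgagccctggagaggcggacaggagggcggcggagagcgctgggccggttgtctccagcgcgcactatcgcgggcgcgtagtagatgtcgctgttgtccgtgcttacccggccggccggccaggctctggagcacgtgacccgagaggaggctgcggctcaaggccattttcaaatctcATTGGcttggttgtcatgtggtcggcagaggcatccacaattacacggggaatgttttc

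CCAAT, a promoter element read by the factor NF-Y, was searched on both strands of such 250-base windows. RefSeq windows matched 20 of the 39 members, with 27 windows of which 26 differ in sequence. HOXB6, HOXC6, HOXC9 and HOXC10 were not among the 20. CCAAT was found in 18 of the 27 windows (66.7%), against 32% of all 35116 windows. The motif TGATNNAT, the form bound jointly by PBX and HOX proteins, was found on either strand in 3 of 27 windows (HOXA2, HOXB1 and HOXD11), against 6.47% of all. These 3 genes were at 0 reads. The median number of CpG pairs per window was 19 for HOX and 11 for all windows. The 27 windows include several of 1 gene, so they are not independent, and a motif match is a description only.

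HOXA had few reads at this depth. HOXA5 had 3 reads, all in shNC replicate 3, and HOXA9 had 2 in shNC replicate 2 and 1 in shFTO replicate 3. HOXA10 had 2 reads in shNC replicate 3 and 1 each in shFTO replicates 1 and 3. HOXA11 had 2 reads, both in shNC replicate 2. The antisense gene that starts beside HOXA11 was far richer: HOXA11-AS, a long noncoding RNA read from the opposite strand, had 146 reads. It stood at 101.7, 79.1 and 88.8 FPKM in shNC and 51.1, 81.5 and 74.2 in shFTO. In GENCODE release 29, 31.1% of the exonic bases of HOXA11 lie opposite exons of HOXA11-AS. The design text names a strand-specific protocol, but the strand setting of the counting is not given in the sources used here, so reads of HOXA11 and HOXA11-AS cannot be told apart with certainty.

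The remaining 22 members were at 0 in all 6 libraries, among them HOXA2, HOXA3, HOXA4, HOXA6, HOXA7 and HOXA13; HOXB1, HOXB3, HOXB4, HOXB7, HOXB8 and HOXB13; HOXC11 and HOXC12; and HOXD1, HOXD3, HOXD4, HOXD9 and HOXD11 to HOXD13. At 3 reads over the 6 libraries together, the upper limit a count of 0 allows, they would stand at 0.682 (HOXB3) to 4.46 FPKM (HOXD4). Some of these zeros lie beside well-read genes. HOXB6 was at least 16.9-fold higher per length than HOXB7, HOXD10 at least 11.7-fold higher than HOXD9 and 13.2-fold higher than HOXD11, and HOXC10 at least 10.05-fold higher than HOXC11. These bounds set the lower 95% counting limit of the read gene against the limit of 3 reads for its neighbour, and they cover counting error only. HOXD10 and HOXD11 share exons on the same strand (16.8% and 21.4% of their exonic bases), so reads there may not be assignable to either. Of the HOXD4 and HOXD3 exonic bases 80.5% and 62.2% are shared with another gene on the same strand, so their zeros are less informative.

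**Figure D2:**
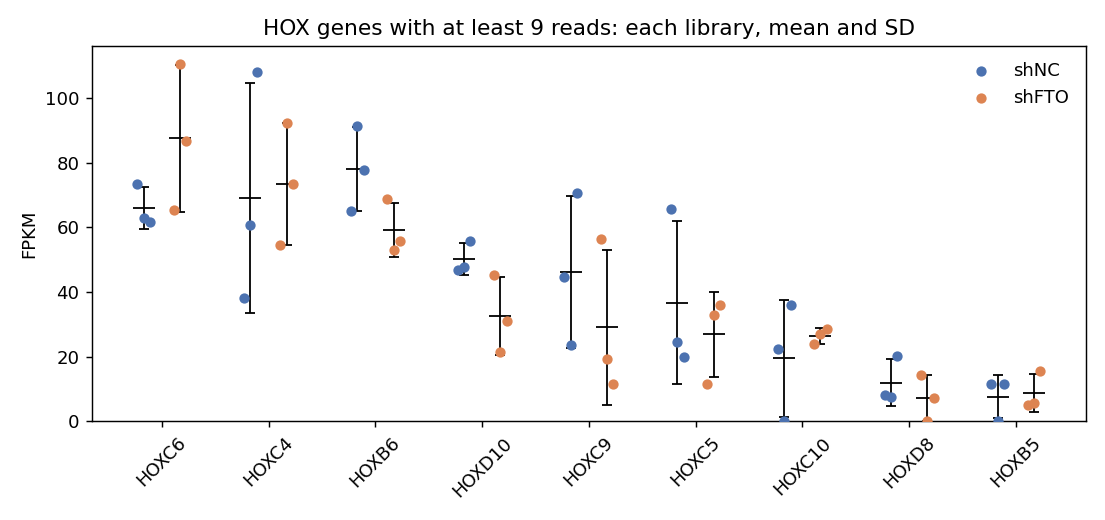
FPKM of the 9 HOX genes with at least 9 reads, in order of mean level. Points are single libraries, with the mean and SD of the 3 libraries of each group as bars. The HOXD10 groups stand apart by a small gap (46.9 against 45.4 FPKM) and the groups of the other 8 genes overlap. Among all genes tested, 6.59% had groups that did not overlap.

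In order of mean level over the 6 libraries came HOXC6 (76.8 FPKM), HOXC4 (71.2), HOXB6 (68.6), HOXD10 (41.4), HOXC9 (37.7), HOXC5 (31.8), HOXC10 (22.9), HOXD8 (9.6) and HOXB5 (8.21). The ranges of every 2 neighbours in this order overlapped. HOXB6 was nevertheless above HOXD10 in 6 of 6 libraries, HOXC6 above HOXC4 in 5 and HOXC10 above HOXD8 in 5. Among the 6518 protein-coding genes with reads, HOXC6 stood at percentile 96.2, HOXC4 and HOXB6 at 96.1, HOXD10 at 94.4 and HOXB5 at 84.6. The HOX genes with 1 to 4 reads stood lower, from percentile 33.6 (HOXC8) to 72.3 (HOXA5). HOX genes are short, with a median exonic length of 2456 bases against 4438 for protein-coding genes.

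No HOX gene passed the test between shFTO and shNC. In limma on log2(FPKM + 1), with Benjamini-Hochberg adjustment over 4932 genes, 0 of 17 HOX genes were called, against 0.0406% of all genes tested (2 genes, both lower in shFTO). The 17 tested are the members with any read, and the 22 at 0 could not be tested. At an unadjusted p under 0.05 there were also 0 of 17, against 3.85% of all. That count was 3 of 17 with a pseudocount of 0.1 (all genes 224 of 4932) and 2 of 17 with a replicate block (267 of 4932). It was 4 of 16 without shFTO replicate 1 (165 of 4898) and 1 of 15 without shNC replicate 2 (185 of 4861). With no filter it was 1 of 17 (250 of 7057), and with a mean of at least 10 reads per library 1 of 4 (31 of 705). Under the other alternatives it was 0. Groups did not overlap, lower in shFTO, for 1 of 17 (HOXD10), against 3.69%, and higher in shFTO for 0 of 17, against 2.9%. In either direction that is 1 of 17, against 6.59%. Point estimates were lower in shFTO for 11 and higher for 6, with a median log2 difference of -0.39 against 0.00 over all tested genes. For the 4 members with at least 60 reads the median was -0.11. Of these 11, 6 rest on 1 to 3 reads in all.

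HOXD10 had the smallest p of the members, with a log2 fold change of -0.66 (SE 0.33), an unadjusted p of 0.0538 and an adjusted p of 0.772 in limma. Each of the 3 shFTO values lay under the lowest shNC value. HOXB6 had a log2 fold change of -0.39 (SE 0.26) and HOXC6 of 0.37 (SE 0.25), both with a limma adjusted p of 0.772. HOXC4 had 0.18 (SE 0.32) and HOXC9 had -0.82 (SE 0.58). None of these differences passed the test. Leaving out 1 library moved several estimates by over 1.5 times: HOXD10 to -0.40 without shFTO replicate 2, HOXC6 to 0.19 without that library and to 0.56 without shFTO replicate 1, and HOXC9 to -1.44 without shFTO replicate 1 and to -0.34 without shFTO replicate 3. HOXC10 had 1.52 with an SE of 1.59, which rests on the 0 in shNC replicate 2. Without that library it was -0.105. HOXA10 had a log2 difference of 0.31 although its mean FPKM was 1.92 in shNC and 1.72 in shFTO, since its reads were spread over more shFTO libraries.

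**Figure D3:**
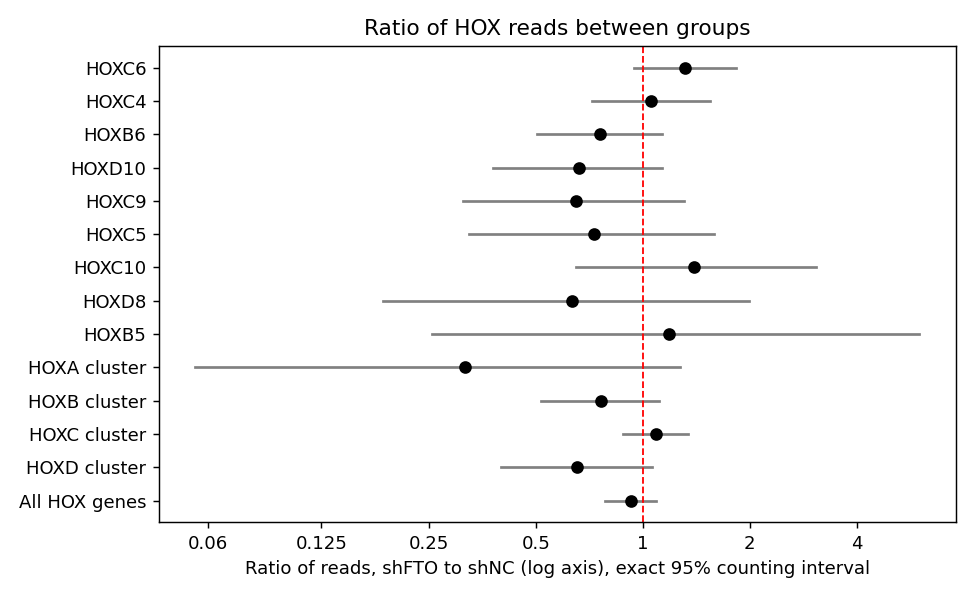
Ratio of recovered reads in shFTO to shNC, scaled to library totals, on a log axis. Points are ratios and lines exact 95% counting intervals; each of the 14 intervals crosses 1, from HOXC6 (0.945 to 1.83) to the HOXA cluster (0.0552 to 1.27).

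Counting error alone left wide limits. The ratio of reads in shFTO to shNC, scaled to library totals, was 1.31 for HOXC6 (exact 95% interval 0.945 to 1.83) and 1.055 for HOXC4 (0.721 to 1.55). It was 0.758 for HOXB6 (0.505 to 1.13) and 0.661 for HOXD10 (0.38 to 1.13). These genes can thus differ between the groups by amounts that the intervals contain. For HOXC10, at 1.39, the interval ran from 0.651 to 3.06, and for HOXD8, at 0.634, from 0.186 to 1.99. The variance of reads between shNC libraries was 4.49 times their mean for HOXC4 and 0.182 times for HOXC6, where pure counting gives 1 on average. Between shFTO libraries it was 0.803 times for HOXC4 and 1.198 times for HOXC6. Each ratio rests on 3 libraries, too few to tell whether spread beyond counting differs between genes. The intervals are too narrow wherever libraries differ by more than counting error.

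By cluster, HOXB reads per 100000 were 20.1, 24.8 and 22.4 in shNC and 18.8, 14.9 and 17.4 in shFTO. These sums did not overlap, although HOXB6, with 106 of the 117 reads, did. In shNC replicate 1, the lowest shNC library, 3 of the 19 HOXB reads were of HOXB5 and HOXB9. HOXD had 13.8, 13.9 and 19.2 in shNC and 15.1, 5.31 and 9.67 in shFTO, with overlap. HOXC had 61.5, 46.5 and 74.8 in shNC and 55.5, 78.7 and 64.8 in shFTO, also with overlap. HOXA had 0, 3.96 and 5.34 in shNC and 0.941, 0 and 1.93 in shFTO, with overlap. Among all single genes tested, 6.59% had groups that did not overlap, and no such share was worked out for sums of genes. The share of HOXC among HOX reads was 59.4% ± 6.36 in shNC and 70% ± 9.09 in shFTO. It was highest in shFTO replicate 2 (79.6%) and lowest in shNC replicate 2 (52.2%). Sums over members carry no test here, because the members were proposed with earlier results known.

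**Figure D4:**
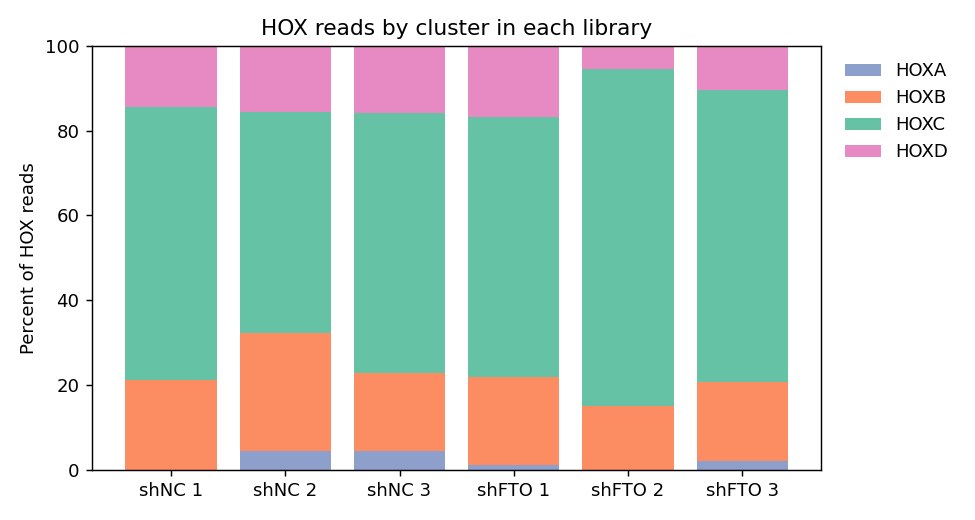
Share of HOX reads by cluster in each library, in percent, stacked to 100. HOXC takes the largest share in all 6 libraries, from 52.2% in shNC replicate 2 to 79.6% in shFTO replicate 2, and HOXA takes at most 4.44%.

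Summed over the 39 genes, HOX reads per 100000 averaged 102.1 ± 17.3 in shNC libraries and 94.3 ± 4.27 in shFTO libraries. The single libraries had 95.4, 89.1 and 121.8 in shNC and 90.4, 98.8 and 93.8 in shFTO. The difference of -7.77 turned to 2.07 without shNC replicate 3, the highest library, and was smaller than the SD in shNC. Genes 4 to 6 averaged 70.7 ± 8.13 in shNC and 71.9 ± 12.9 in shFTO on this scale, and genes 9 and 10 had 26.5 ± 9.29 and 20.2 ± 6.4. Genes 4 to 6 were ahead of genes 9 and 10 in each library of both groups, mainly through HOXC4, HOXC6 and HOXB6.

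HOX proteins gain their binding specificity from cofactors of the TALE homeodomain class. Of 9 such genes 7 had reads and 6 were tested, with 0 called higher and 0 called lower in limma. MEIS1, which enters HOX and PBX complexes on DNA, was the most read, at 341, 384 and 382 FPKM in shNC and 385, 378 and 402 in shFTO. PBX3, a direct HOX partner, had 199, 164 and 159 FPKM in shNC and 149.7, 154 and 162 in shFTO. MEIS2 had 14.4 ± 6.42 and 16.5 ± 5.04 FPKM. MEIS1 and PBX3 thus lay above every HOX gene per length in each library, whereas PBX4 and MEIS3 were at 0.

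**Figure D5:**
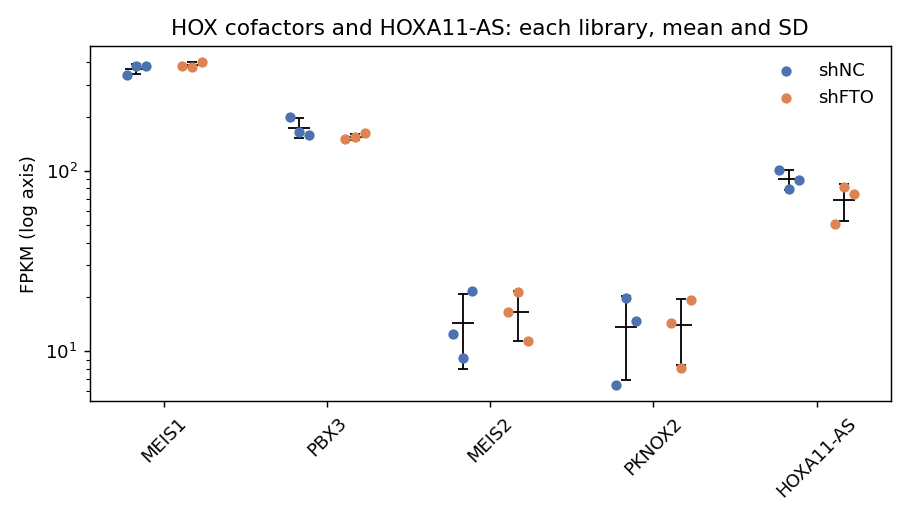
FPKM, on a log axis, of 4 TALE cofactor genes and of HOXA11-AS, by library, with the mean and SD of each group of 3. MEIS1 (368.8 and 388.1 FPKM on average) and PBX3 (173.8 and 155.1) stand close together between groups, and the HOXA11-AS groups overlap.

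Transcripts that run antisense to HOX genes or between them were mostly at 0. Of 26 listed, 23 were in the table and 4 had reads, with 0 called in either direction. HOXA11-AS had a log2 fold change of -0.40 (SE 0.25, limma adjusted p = 0.772). HOTAIRM1, a HOXA transcript, had 3 reads in shNC and 0 in shFTO, and HOTAIR, a HOXC transcript known for its link to Polycomb, had 1 and 1. HOTTIP, HOXB-AS3 and HAGLR were at 0. The 6 miRNA genes hosted in the clusters (miR-10, miR-196 and miR-615 families) were at 0 too, in libraries of long poly(A) RNA that are not made to measure mature miRNAs.

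Chromatin complexes keep HOX clusters on or off. Of 18 Trithorax and MLL complex genes, which sustain active HOX genes, 13 had reads and 10 were tested; 0 were called in either direction. KDM6A, a demethylase that removes the Polycomb mark, had 40.3 ± 0.85 FPKM in shNC and 38.4 ± 2.88 in shFTO. KMT2C, a histone methyltransferase, had 3.34 ± 1.56 and 3.14 ± 0.895. RBBP5, a core MLL subunit, had 27.4 ± 13.8 and 45.7 ± 11.4 (log2 fold change 0.84, SE 0.39, limma adjusted p = 0.772). Of 30 Polycomb genes, which silence HOX genes, 22 had reads and 19 were tested, with 0 called in either direction and a median log2 difference of -0.20. RBBP7, a histone-binding subunit, had 265.3 ± 44.6 and 269.1 ± 8.91 FPKM. SUZ12 had 40.2 ± 5.09 and 42.2 ± 7.59 FPKM, and EED had 30.4 ± 3.59 and 38.1 ± 3.46. Groups did not overlap for 3 of the 19, EED among the 2 that were higher in shFTO, against 6.59% of all genes tested. Of 9 boundary and cohesin genes, which fold the clusters into separate domains, all had reads, 8 were tested and 0 were called. STAG2, a cohesin subunit, had 154.6 ± 7.1 and 153.2 ± 5 FPKM, and MAZ, a zinc finger factor found at HOX boundaries, had 200.9 ± 14.5 and 240.1 ± 11.5 (log2 fold change 0.26, SE 0.16, limma adjusted p = 0.772), and its groups did not overlap. NIPBL, which loads cohesin, had 69.2 ± 7.59 and 57.9 ± 6.07 (log2 fold change -0.25, SE 0.26, limma adjusted p = 0.772), lower in shFTO without overlap. That is 2 of the 8 without overlap, 1 in each direction, against 6.59% of all genes tested.

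Retinoic acid turns on HOX genes in embryos. Of 18 genes of its synthesis, breakdown and receptors 7 had reads and 7 were tested, with 0 called. ALDH1A3, which makes retinoic acid, had 37.8, 3.71 and 10 FPKM in shNC and 7.06, 0 and 7.25 in shFTO, so shNC replicate 1 held 19 of its 34 reads. RDH10 had 13 reads and RARA 8. The CDX and ParaHox genes, relatives of HOX that lie outside the clusters, were at 0 (6 of 6). Among 32 further transcription factors of limb and skeletal position 15 had reads and 13 were tested, with 0 called. PRRX1, a limb mesenchyme factor, had 146 ± 16.1 and 142.3 ± 13.9 FPKM. TWIST1 had 53.3 ± 19.2 and 62.1 ± 22.8, and TWIST2 had 53.8 ± 17.7 and 68.9 ± 41.6. PITX1, which marks hindlimb identity, had 5 reads in shNC and 0 in shFTO and was named after its values were seen (limma adjusted p = 0.772). Of 10 further HOX binding partners 6 had reads, 5 were tested and 0 were called. HMGB1, a DNA-bending protein, had 4826 reads, MAF 169 and SMAD4 131.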

How the data were processed

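Per the labels' protocols, poly(A) RNA was selected from TRIzol extracts of MG63 cells and made into libraries, 3 shNC and 3 shFTO. The submitters' processing notes list HISAT2 2.2.1 and StringTie 1.3.3b, HTSeq 0.6.1 and DESeq2 1.50.2, FastQC 0.10.1, and the build GRCh38, without roles. The authors deposited an FPKM value for each gene, given to 2 decimals, and its exonic length. FPKM times length gave whole reads (within 0.05) for 100% of values above 0 in each library at totals searched between 20000 and 200000; 1 read of a HOX gene is worth several FPKM.

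limma 3.58.1 (R 4.3.3, trend and robust) was applied on log2(FPKM + 1). A gene entered when either group averaged 1 FPKM or more. The fit used Benjamini-Hochberg adjustment and calls under 0.05. Log2 differences of low genes on this scale depend on the pseudocount and on libraries at 0, and can depart from the ratio of reads in size or direction. HOXC10 had a log2 difference of 1.52 beside a ratio of reads of 1.39. HOXA10 had 0.31 beside a ratio of 0.951. P-values set the difference between groups against the spread between these libraries, moderated over genes. They do not cover other cell lines or hairpins. Exact intervals on reads used SciPy 1.17.1 and cover counting error only. On simulated data the fit found 42.9% of 2-fold, 81.5% of 4-fold and 89.3% of 8-fold changes. It made 7.8, 9.6 and 11.2 false calls on average beside 85.8, 163 and 178.6 found. The changes were set in genes with at least 60 reads in all, at a variance of 1.5 times the mean. In the data, libraries of the same group differed in such genes by 1.777 to 2.077 times counting error (chi-square per degree of freedom). Each simulation also changed 200 genes, which eases the adjusted threshold, whereas 2 genes were called in the data. The shares found may therefore be too high for these data. HOX genes with fewer reads are not covered by the simulation.

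Exon sharing and messages came from GENCODE release 29 (GRCh38), which holds all 39 HOX gene IDs, and start windows from RefSeq (GRCh38.p14). The annotation the authors counted on is not given in the sources used here. HOX genes with at least 3 reads, and up to 3 most-read genes of each pathway list, were named with values or reads. Some items are not reported here. Members, lists and tests were chosen with earlier results of these data known. Alternatives were limma-voom, a replicate block, upper-quartile scaling, each library left out, a mean of at least 10 reads per library, no filter, and a pseudocount of 0.1.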

Additional observations from a re-analysis of the deposited data

How the results depend on the processing

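Of HOX genes 0 were called in limma under each of the 12 alternatives, the 6 with a library left out included. Over all genes the count of 2 became 7 with a pseudocount of 0.1, 9 with no filter, 0 with a mean of at least 10 reads per library (31 at an unadjusted p under 0.05), 5 in limma-voom and 4 with upper-quartile scaling. It ran from 2 to 9 with 1 library left out. With the replicate block it was 17, of which 0 were HOX genes. Same-numbered libraries showed little shared deviation (correlations of -0.003, 0.039 and -0.012 over 705 genes). Counting error at this depth weakens such correlations, so they cannot show that the number pairs nothing. The alternatives gave 185 HOX log2 differences. With no filter, a replicate block or a mean of at least 10 reads per library they equal those of the main fit, so their sign could not change. Members with reads in only 1 library, such as HOXA5, had hardly any room to change sign, and they were not fitted without that library. The count of kept signs is thus partly fixed in advance. Of the 185, 173 kept their sign and 12 did not, each of these with a library left out. The ranges there were -0.971 to 0.689 for HOXA9, -0.153 to 1.225 for HOXA10, -0.504 to 1.317 for HOXB5, -0.176 to 0.56 for HOXC4, -0.716 to 0.123 for HOXC5 and -0.105 to 2.501 for HOXC10. Without change of sign they were -2.031 to -0.062 for HOXD8, -1.44 to -0.344 for HOXC9, -0.929 to -0.402 for HOXD10, 0.188 to 0.564 for HOXC6 and -0.514 to -0.273 for HOXB6. The difference in summed HOX reads ran from -14.25 to 2.07 of 100000 with a library left out and was -15.18 without HOXC6. The smallest adjusted p of a HOX gene over the alternatives was 0.654. Depth limits all of this, since 4 HOX genes reached a mean of 10 reads per library.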
